A study of Mus musculus with 6 samples.

Results

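Integrins, the selectin ligand PSGL-1 and the receptors they meet on other cells were followed through 3 stages of T cell formation from blood progenitors. The set was chosen by name and holds 33 genes. It contains 26 integrin chains, of which 18 are alpha and 8 are beta chains, and 7 partners, namely Tln1, Fermt3, Selplg, Icam1, Icam2, Vcam1 and Cd44. All 33 were measured among 19938 genes, each through its brightest probe set linked to that gene alone.

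RNA from mouse cells was measured on 6 Affymetrix arrays, 2 for each population, and the cells of every population had been transduced with NUP98-HOXB4, a fusion known to keep progenitors dividing in vitro. HSC were bone marrow cells expanded with IL6 and SCF. ProT were such cells after growth with IL7 and DLL4, a ligand of the Notch1 receptor. DP were double positive thymocytes that formed after ProT cells were injected into a Rag2-/- mouse, a host that makes no mature T or B cells of its own but keeps its stroma and myeloid cells. The labels name no mouse age, no number of mice and no separate cultures, so each p-value reflects only how far such samples lay apart, a spread that could be technical.

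An integrin is a pair of 1 alpha and 1 beta chain, and the pair decides what the cell can hold: collagen, laminin, fibronectin, or a counter-receptor such as ICAM1, VCAM1 or E-cadherin on another cell. Talin and kindlin bind the tail of the beta chain and switch the pair into its binding form. Blood progenitors use alpha4beta1 and alphaLbeta2 to lodge in the marrow, and PSGL-1 on progenitors meets P-selectin on thymic vessels when they seed the thymus. A chain reaches the surface only with its partner, and these data measure RNA, not surface protein.

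Values are log2 signals as deposited, and changes are differences of log2 group means with the standard error from limma. A gene counts as called where its adjusted p (Benjamini-Hochberg, across the 19938 genes) was under 0.05. The median of all gene values was 7.17. No background level is known for these signals, so a fold whose lower mean fell under 7.17 is written as a minimum. The stage labels were checked against marker genes. Progenitor markers reached that median in HSC (7 of 7), but all except Mecom also reached it in ProT and all except Gata2 in DP. That level therefore does not set HSC apart. Against HSC, 1 of these 7 was higher and 2 were lower in ProT, and all 7 were lower in DP. Early T markers lay below the median in HSC (8 of 8) and reached it in ProT and DP (8 of 8). Cd4, Cd8a, Cd8b1, Rag1, Rag2 and Dntt reached it in DP only. The 9 granulocyte markers also reached it in HSC, with list means of 11.31 and 11.44 on the HSC arrays. As a sample may hold several cell types, fewer cells of a type and less RNA per cell cannot be told apart. The HSC arrays differed from each other at least 2-fold at 4 of the 33 adhesion genes (12.1%, against 1.02% of all genes), namely Itga1, Itga2b, Itgb3 and Vcam1. No adhesion gene differed that much within ProT or within DP.

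Of the 33, 10 rose and 6 fell in ProT relative to HSC. Over all 19938 genes the shares were 7.85% and 6.90% in that comparison, and 14.7% were called in either direction. From ProT to DP the balance turned, with 4 genes higher and 13 lower in DP, against 14.5% and 18.1% of all genes (32.6% in either direction). Changes of at least 2-fold among the calls numbered 8 higher and 5 lower in ProT than in HSC (3.47% and 2.70% of all genes) and 2 higher and 8 lower in DP than in ProT (4.41% and 7.12%). Without DP replicate 1 or DP replicate 2 the 4 higher genes became 2, and the 17 calls of this comparison became 12 and 11. By the rule of a call at each step, 9 genes were called higher in ProT than in HSC and lower in DP than in ProT: Itga2, Itga2b, Itgae, Itgav, Itgax, Itgb3, Itgb4, Itgb7 and Selplg. That is 27.3% of the set, where 4.17% of all genes had this shape, and the 9 became 6 without either DP array. Both steps share the ProT arrays, so an error on those arrays enters both with opposite signs. The reverse shape, called lowest in ProT, was held by Vcam1 alone, 1 of 33 against 1.35% of all genes. That count was 2 without HSC replicate 2 and 0 without DP replicate 1 or 2. The median log2 change of the set was 0.02 in ProT against HSC and -0.11 in DP against ProT, where the medians of all genes were -0.01 and 0.02. Centring each array on its median shifted the median of all genes to 0.13 in DP against ProT, and the share of higher genes among all calls there to 60.2%, against 44.6% as deposited. In ProT against HSC that share was 42.0% after centring and 53.2% as deposited.

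**Figure D1:**
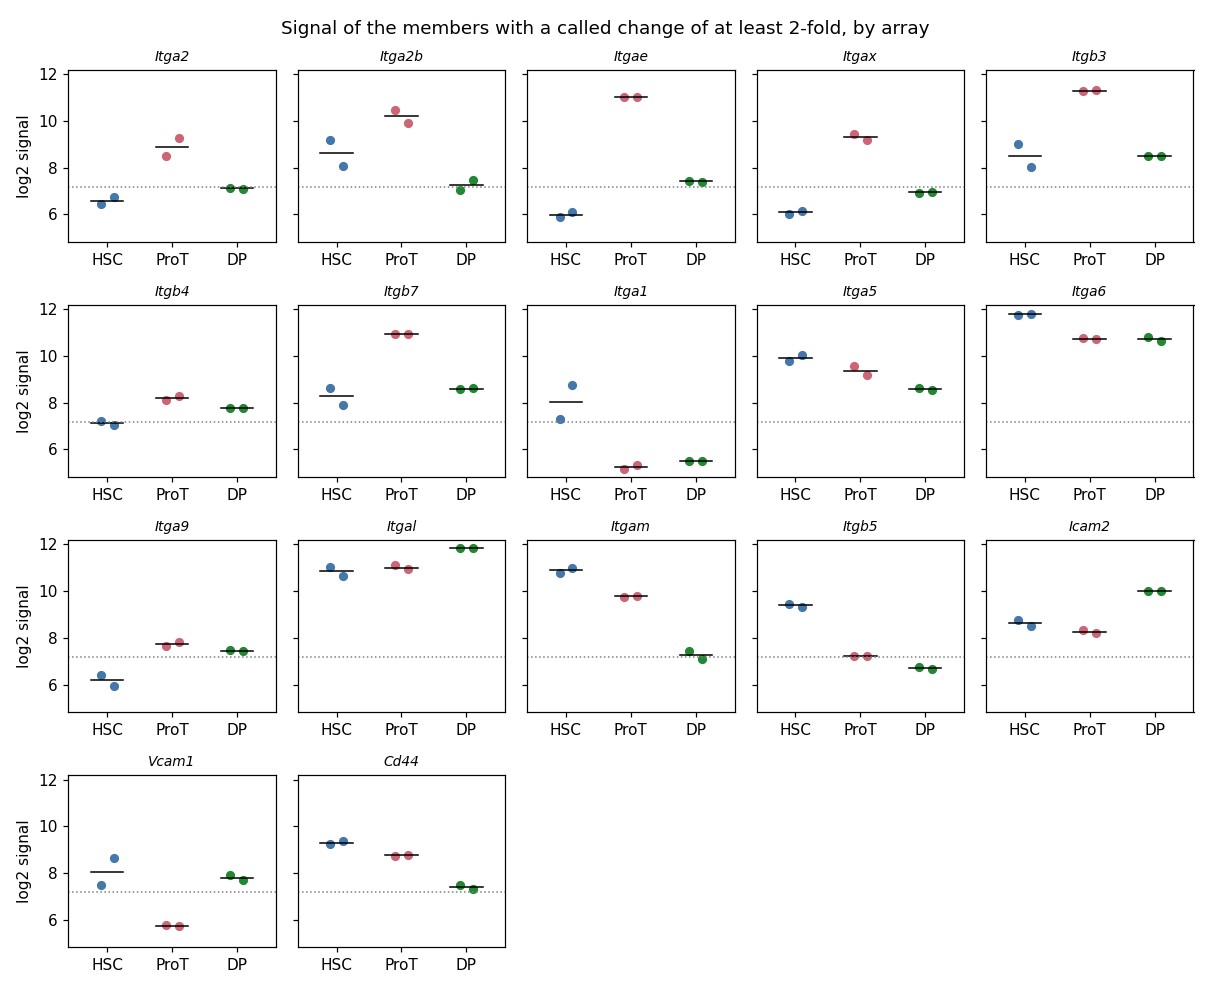
Log2 signal (vertical axis) of the 17 adhesion genes with a called change of at least 2-fold, for each array in HSC, ProT and DP. Points are single arrays, black bars are means of 2 arrays and the dotted line is the median of all gene values, 7.17. Itgae, Itgax, Itgb3 and Itgb7 peak in ProT, while Itgam and Cd44 step down from HSC through ProT to DP.

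The widest swing belonged to alphaEbeta7, the receptor with which lymphocytes and mast cells of epithelia hold E-cadherin. Itgae, its alpha chain (also called CD103), read 5.87 and 6.11 in HSC, 11.04 and 11.01 in ProT, and 7.44 and 7.37 in DP. The ProT arrays stood far above all others and the 3 populations did not overlap. Itgae was at least 32.7-fold higher in ProT than in HSC (log2 change 5.03 ± 0.10, adjusted p = 6.08e-06) and 12.3-fold lower in DP than in ProT (-3.62 ± 0.10, adjusted p = 1.15e-05). DP still lay above HSC by 1.41 ± 0.10 (adjusted p = 0.000193). Itgb7, the beta chain shared by alphaEbeta7 and the gut homing receptor alpha4beta7, read 8.64 and 7.90 in HSC, 10.95 and 10.93 in ProT, and 8.61 and 8.62 in DP. It was 6.37-fold higher in ProT than in HSC (2.67 ± 0.23, adjusted p = 0.00106) and 5.02-fold lower in DP than in ProT (-2.33 ± 0.23, adjusted p = 0.000848), and its DP and HSC arrays overlapped. Itga4, the other partner of Itgb7 and the chain of progenitor homing, was called in no comparison, with 11.57 and 11.33 in HSC, 11.03 and 11.65 in ProT, and 11.82 and 11.85 in DP. Cdh1, which encodes E-cadherin, the ligand of alphaEbeta7, also peaked in ProT. It averaged 11.13 ± 0.02 in ProT and 6.10 ± 0.01 in HSC (SD, n = 2 each), at least 32.7-fold higher in ProT, and at 6.92 ± 0.01 in DP it was at least 18.5-fold lower than in ProT (adjusted p = 1.95e-06 and 2.91e-06).

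Mast cells and NK cells also carry integrins of this kind, and most of their markers moved with these genes. The 7 mast cell markers had list means of 7.07 and 6.86 in HSC, 8.66 and 8.76 in ProT, and 5.83 and 5.81 in DP. In ProT against HSC, 5 of the 7 were higher and 1, Hdc, was lower (-3.03 ± 0.19, adjusted p = 0.000293). In DP against ProT, 6 of the 7 were lower. For the 7 NK markers the means were 5.38 and 5.34 in HSC, 8.04 and 7.95 in ProT, and 6.90 and 6.77 in DP, with 5 of 7 higher at the first step and 4 lower and 1 higher at the second. Early T markers shared part of this shape. All 8 were higher in ProT than in HSC. In DP against ProT, 3 of them (Il2ra, Gata3 and Cd7) were lower and 4 were higher. Cma1 and Hdc of the mast cell list and Klrk1 and Eomes of the NK list had ProT means under 7.17. The part of any of these cell types in the results was not tested.

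**Figure D2:**
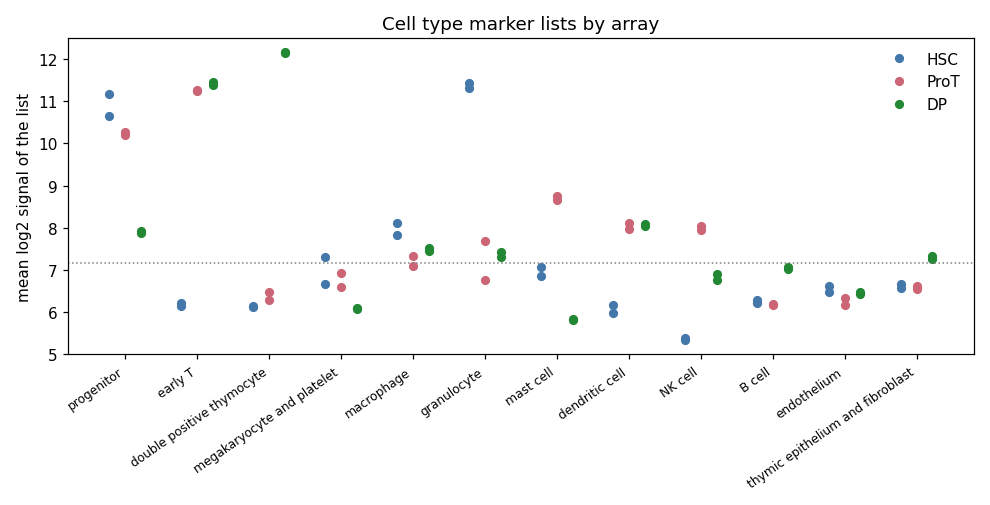
Mean log2 signal (vertical axis) of each cell type marker list on each array, coloured by population, with the median of all gene values, 7.17, as a dotted line. The mast cell and NK cell lists are highest in ProT, the granulocyte list is highest in HSC, and the double positive thymocyte list stands at 12.16 and 12.15 in DP.

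Beta3 integrins, which bind fibrinogen, vitronectin and other RGD-bearing proteins, formed the next group to peak in ProT. Itgb3 read 9.01 and 8.01 in HSC, 11.27 and 11.34 in ProT, and 8.51 and 8.51 in DP. Both ProT arrays lay above the other 4, and the DP arrays fell between the HSC arrays. Itgb3 was 6.95-fold higher in ProT than in HSC (2.80 ± 0.30, adjusted p = 0.00247) and 6.94-fold lower in DP than in ProT (-2.80 ± 0.30, adjusted p = 0.00118). Its difference between DP and HSC was 0.00 ± 0.30 (adjusted p = 0.999), but -0.50 without HSC replicate 2 and 0.50 without HSC replicate 1, both called (adjusted p = 0.00923 and 0.00882). Itga2b, the alphaIIb chain of the platelet fibrinogen receptor, which early progenitors and mast cells carry too, read 9.19 and 8.08 in HSC, 10.46 and 9.93 in ProT, and 7.06 and 7.46 in DP. The populations did not overlap, but the HSC arrays lay over 2-fold apart. Itga2b was 7.63-fold lower in DP than in ProT (-2.93 ± 0.38, adjusted p = 0.00246). It was 2.96-fold higher in ProT than in HSC (1.56 ± 0.38, adjusted p = 0.048), a call that was lost without any 1 array other than HSC replicate 1. The call was also lost under cyclic loess (adjusted p = 0.0502) and with only the 2 populations compared (0.123). The change was 1.01 without HSC replicate 2 and the adjusted p reached 0.204 without ProT replicate 1. Against HSC, Itga2b was lower in DP by 1.37 ± 0.38 on the log2 scale (adjusted p = 0.0379), which moved to -0.81 (adjusted p = 0.0706) without HSC replicate 1 and lost its call without either DP array. Itgav, the alpha chain that pairs with several beta chains including beta3, read 9.58 and 9.72 in HSC, 10.36 and 10.59 in ProT, and 9.73 and 9.68 in DP. It was 1.78-fold higher in ProT than in HSC (adjusted p = 0.00435) and 1.71-fold lower in DP than in ProT (adjusted p = 0.00267).

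Markers of the platelet line were read beside these genes. Of 5 measured megakaryocyte and platelet markers, 0 were higher and 1 lower in ProT than in HSC (Gp9, by 1.33 ± 0.18 on the log2 scale), and 0 were higher and 1 lower in DP than in ProT (Ppbp, by 2.23 ± 0.49). Their list means were 7.31 and 6.68 in HSC, 6.93 and 6.60 in ProT, and 6.07 and 6.10 in DP. Pf4, Gp5 and Vwf had means under 7.17 in each population, and the part of such cells in the Itga2b and Itgb3 results was not tested.

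Beta2 integrins are the leukocyte family, in which 1 beta chain is shared by 4 alpha chains; here the alpha chains differed in direction. Itgb2, the shared chain, read 11.26 and 11.35 in HSC, 11.07 and 11.02 in ProT, and 11.91 and 11.85 in DP. It did not pass between ProT and HSC (-0.26 ± 0.08, adjusted p = 0.0837) and was 1.78-fold higher in DP than in ProT (0.84 ± 0.08, adjusted p = 0.000639). Itgal, the alphaL chain of LFA-1, with which T cells hold ICAM1 on their partners, read 11.04 and 10.66 in HSC, 11.10 and 10.93 in ProT, and 11.85 and 11.86 in DP. The HSC and ProT arrays overlapped and DP stood above both. Itgal was 1.80-fold higher in DP than in ProT (0.85 ± 0.14, adjusted p = 0.00609, lost without DP replicate 1 or 2, with adjusted p up to 0.0583) and 2.01-fold higher in DP than in HSC (adjusted p = 0.00262).

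Itgam, the alphaM chain of the myeloid receptor Mac-1 (CD11b), went the other way. It read 10.80 and 11.01 in HSC, 9.75 and 9.81 in ProT, and 7.44 and 7.10 in DP, with no overlap between populations. It was 2.18-fold lower in ProT than in HSC (-1.12 ± 0.14, adjusted p = 0.00388), 5.70-fold lower in DP than in ProT (-2.51 ± 0.14, adjusted p = 0.000101) and 12.4-fold lower in DP than in HSC. Itgax, the alphaX chain (CD11c) known from dendritic cells, read 6.01 and 6.16 in HSC, 9.42 and 9.18 in ProT, and 6.93 and 6.95 in DP. It was at least 9.31-fold higher in ProT than in HSC (3.22 ± 0.11, adjusted p = 2.76e-05) and at least 5.15-fold lower in DP than in ProT (-2.37 ± 0.11, adjusted p = 5.2e-05). Itgad, the alphaD chain, was called in no comparison, at 7.96 and 8.19 in HSC, 8.05 and 8.01 in ProT, and 7.81 and 7.70 in DP. It is the only adhesion gene here with a second probe set of its own, which read otherwise and is described in the closing observations.

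The 9 granulocyte markers were all lower in ProT than in HSC and, in DP against ProT, 4 were higher and 1 lower. Of 7 dendritic cell markers, the MHC class II genes H2-Aa and H2-Ab1 and the invariant chain gene Cd74 were higher in ProT than in HSC. The lineage-defining Zbtb46, Xcr1, Clec9a and Siglech had means under 7.17 in each population. The list means of these 7 were 6.17 and 5.98 in HSC, 8.12 and 7.98 in ProT, and 8.05 and 8.09 in DP. Their part in the Itgam and Itgax results was not tested.

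Itgam, Itgax and Itgad lie next to each other on chromosome 7 in the RefSeq annotation, with 0 protein-coding genes between them. The promoter windows of Itgam and Itgax are printed because these neighbours moved in opposite directions between HSC and ProT, and that of Itgb7 because it peaked in ProT with its partner Itgae. Each window runs from 250 bases before the RefSeq start site through the first 30 transcribed bases (build GRCm38.p6), 5′ to 3′ on the strand of the gene. Capitals mark matches on either strand to GAGGAA (the PU.1 type), CAGGAAG (the ETS type), TGTGGT (the RUNX type) or TGGGAA (the RBPJ type).
Itgam, chr7:128062390-128062669, plus strand: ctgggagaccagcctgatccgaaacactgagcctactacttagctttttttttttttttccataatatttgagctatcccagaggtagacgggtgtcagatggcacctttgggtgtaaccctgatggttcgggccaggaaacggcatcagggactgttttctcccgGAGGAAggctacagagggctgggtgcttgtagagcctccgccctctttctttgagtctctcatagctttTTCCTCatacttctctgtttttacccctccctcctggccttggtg
Itgax, chr7:128129300-128129579, plus strand: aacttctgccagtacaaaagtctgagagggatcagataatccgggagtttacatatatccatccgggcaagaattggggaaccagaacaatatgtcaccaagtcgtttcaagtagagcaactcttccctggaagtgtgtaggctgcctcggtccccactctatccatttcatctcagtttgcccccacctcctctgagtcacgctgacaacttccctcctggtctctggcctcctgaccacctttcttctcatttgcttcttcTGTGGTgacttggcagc
Itgb7, chr15:102231906-102232185, minus strand: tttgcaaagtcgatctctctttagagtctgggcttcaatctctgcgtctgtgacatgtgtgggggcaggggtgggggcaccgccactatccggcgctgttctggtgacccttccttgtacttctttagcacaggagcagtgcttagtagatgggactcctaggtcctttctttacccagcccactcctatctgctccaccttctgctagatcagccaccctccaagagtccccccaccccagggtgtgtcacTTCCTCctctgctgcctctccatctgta

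The Itgam window held 2 matches to GAGGAA, 1 on each strand, and none of the other motifs. Those of Itgax and Itgb7 held 1 match each, to TGTGGT and to GAGGAA on the opposite strand. Matches of this length are common: GAGGAA occurred in 26.0% of 32851 RefSeq promoter windows of the same length, TGTGGT in 15.6%, TGGGAA in 23.8% and CAGGAAG in 12.4%. Promoter windows were matched for 22 of the 33 genes (24 windows), and 11 of those 24 held GAGGAA. A match describes the letters of the window and is not evidence of a bound site.

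**Figure D3:**
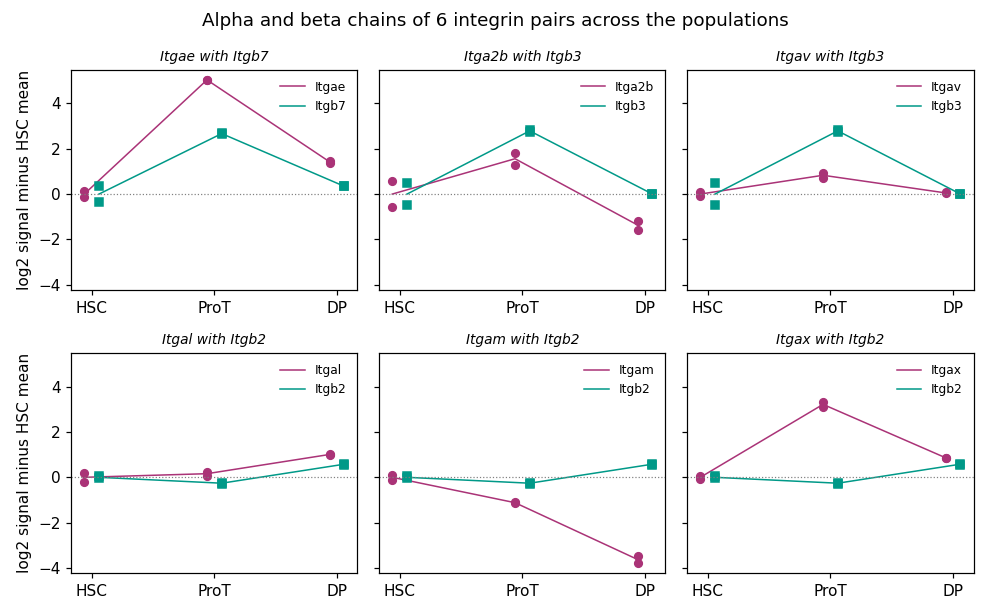
Log2 signal relative to each gene's own HSC mean (vertical axis) for the alpha chain (circles) and beta chain (squares) of 6 integrin pairs in HSC, ProT and DP. Points are single arrays and lines join the means of 2 arrays. Itgae with Itgb7 and Itga2b with Itgb3 rise and fall together, Itgal and Itgb2 are both higher in DP, and Itgam and Itgax part from Itgb2.

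Set out as 24 textbook pairs, both chains were higher in ProT than in HSC for 3 of them, alphaEbeta7, alphaIIbbeta3 and alphaVbeta3. The chains were called in opposite directions for 2 pairs (alphaVbeta5 and alpha6beta4), 1 chain was called for 10 pairs and neither for 9. In DP against ProT both chains were lower for 4 pairs, these 3 and alphaVbeta5, and both were higher for 1, alphaLbeta2. The chains of alphaMbeta2 and alphaXbeta2 went in opposite directions, with the alpha chain lower and Itgb2 higher in DP. Pairs share chains, so these counts are a description. They include the call of Itga2b in ProT against HSC and those of Itgal and Itgb5 in DP against ProT. Each of these calls was lost with at least 1 single array left out.

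Among the alpha chains that pair with beta1, the collagen receptors Itga1 and Itga2 changed in opposite directions between HSC and ProT although they are adjacent on chromosome 13. Itga1 read 7.31 and 8.76 in HSC, 5.15 and 5.33 in ProT, and 5.51 and 5.51 in DP. The HSC arrays were far apart but both lay above the other 4. Itga1 was at least 6.97-fold lower in ProT than in HSC (-2.80 ± 0.43, adjusted p = 0.00955) and at least 5.77-fold lower in DP than in HSC (-2.53 ± 0.43, adjusted p = 0.00595). The first change was -3.53 without HSC replicate 1 and -2.08 without HSC replicate 2, and its adjusted p was 0.0521 without ProT replicate 1. The second ran from -3.25 without HSC replicate 1 to -1.80 without HSC replicate 2, and its call was lost without either DP array (adjusted p = 0.0542 and 0.0564). Itga2 read 6.43 and 6.74 in HSC, 8.51 and 9.27 in ProT, and 7.13 and 7.09 in DP. It was at least 4.93-fold higher in ProT than in HSC (2.30 ± 0.25, adjusted p = 0.00255) and at least 3.42-fold lower in DP than in ProT (-1.77 ± 0.25, adjusted p = 0.00327).

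Itga6, a laminin receptor chain of stem and progenitor cells, read 11.75 and 11.80 in HSC, 10.76 and 10.72 in ProT, and 10.80 and 10.64 in DP. It was 2.05-fold lower in ProT than in HSC (-1.04 ± 0.08, adjusted p = 0.000865) and did not differ beyond the spread between DP and ProT (-0.02 ± 0.08, adjusted p = 0.911), where its sign turned positive under each of the 3 rescalings tried. Itga5, the fibronectin receptor chain, read 9.78 and 10.03 in HSC, 9.57 and 9.17 in ProT, and 8.65 and 8.55 in DP. It was 2.47-fold lower in DP than in HSC (-1.30 ± 0.16, adjusted p = 0.00141), with a called step from ProT to DP (-0.77 ± 0.16, adjusted p = 0.0131, up to 0.103 without DP replicate 1 or 2). Itga9, a relative of alpha4 that binds tenascin and VCAM1, read 6.43 and 5.92 in HSC, 7.64 and 7.83 in ProT, and 7.47 and 7.44 in DP. It was at least 2.94-fold higher in ProT than in HSC (1.56 ± 0.17, adjusted p = 0.00287) and did not pass between DP and ProT (-0.28 ± 0.17, adjusted p = 0.297). Itgb1, their shared chain, was called in no comparison, at 10.32 and 9.92 in HSC, 9.70 and 9.91 in ProT, and 10.35 and 10.19 in DP.

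The remaining beta chains were split. Itgb5, a partner of alphaV, read 9.46 and 9.31 in HSC, 7.22 and 7.22 in ProT, and 6.75 and 6.68 in DP. It was 4.49-fold lower in ProT than in HSC (-2.17 ± 0.08, adjusted p = 4.54e-05) and lower again in DP than in ProT (-0.51 ± 0.08, adjusted p = 0.00603, or 0.0571 without DP replicate 2). Itgb4, the partner of alpha6 in epithelial anchoring, read 7.23 and 7.03 in HSC, 8.13 and 8.31 in ProT, and 7.79 and 7.78 in DP. It was at least 2.13-fold higher in ProT than in HSC (1.09 ± 0.10, adjusted p = 0.00157). Its step down to DP of -0.44 ± 0.10 (adjusted p = 0.0233) was lost after quantile normalization (-0.22, adjusted p = 0.126) and without ProT replicate 2 or either DP array. Itgb6 and Itgb8, partners of alphaV, and Itga3, Itga7, Itga8, Itga10 and Itga11, chains known from epithelium, muscle, kidney, cartilage and fibroblasts, had means below 7.17 in each of the 3 populations. Their array values lay between 4.76 (Itgb6) and 7.01 (Itga10), and of these 7 genes only Itga3 was called, in DP against HSC (0.38 ± 0.08, adjusted p = 0.0172, lost without HSC replicate 1 or DP replicate 1).

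**Figure D4:**
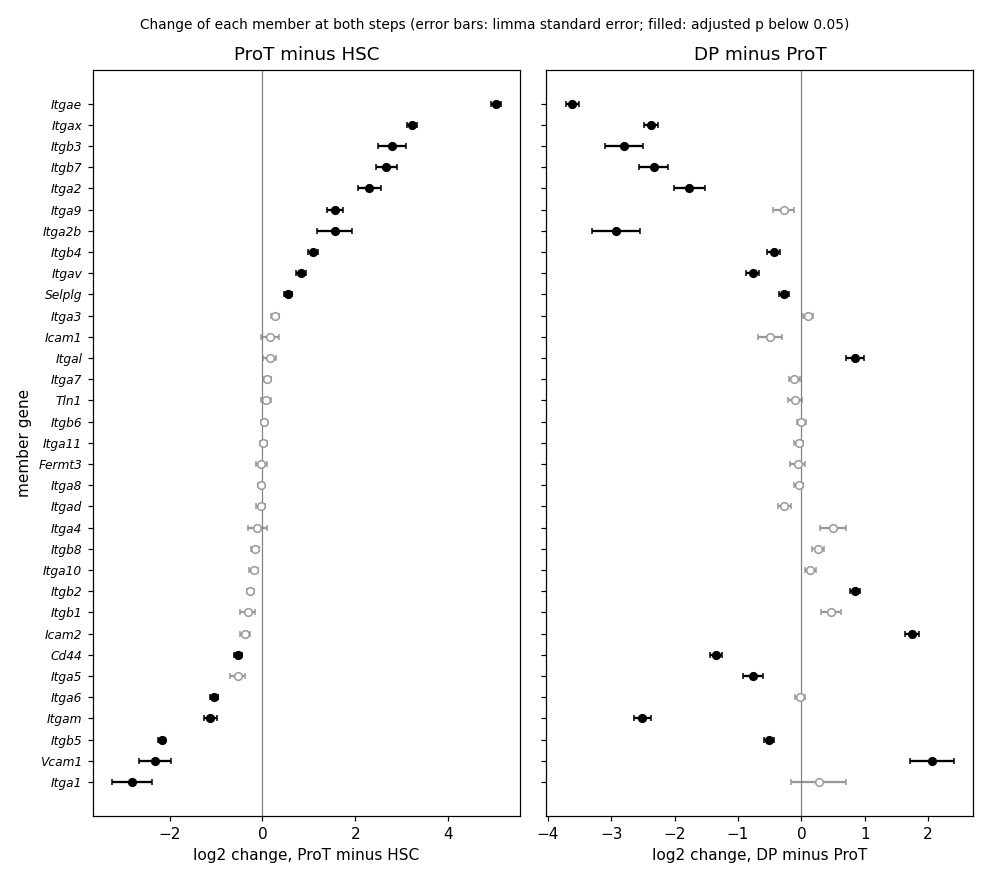
Log2 change of each of the 33 adhesion genes (horizontal axes) in ProT minus HSC on the left and DP minus ProT on the right, ordered by the left panel. Error bars are limma standard errors and filled points have an adjusted p below 0.05. Itgae stands at 5.03 on the left and -3.62 on the right, and the 2 panels share the ProT arrays.

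The cytoplasmic activators passed the test at no stage. Tln1, which encodes talin, lay between 11.32 and 11.60 on all arrays and Fermt3, which encodes the blood cell form of kindlin, between 10.92 and 11.25, and neither was called in any comparison. The changes of Tln1 were 0.07 ± 0.11 in ProT against HSC and -0.10 ± 0.11 in DP against ProT, and those of Fermt3 were -0.02 ± 0.12 and -0.06 ± 0.12, and the signs of all 4 depended on the rescaling of the arrays. Selplg, which encodes PSGL-1, read 12.20 and 12.11 in HSC, 12.72 and 12.69 in ProT, and 12.46 and 12.39 in DP, with no overlap between populations. Selplg was 1.46-fold higher in ProT than in HSC (0.55 ± 0.08, adjusted p = 0.00623). It was lower in DP than in ProT by 0.28 ± 0.08 on the log2 scale (adjusted p = 0.0367), and that call was lost with arrays rescaled by quantiles (adjusted p = 0.0985), by medians (0.142) or by cyclic loess (0.215) and without any 1 ProT or DP array.

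The counter-receptors and the hyaluronan receptor Cd44 differed in when they changed. Icam2, a ligand of LFA-1, read 8.78 and 8.51 in HSC, 8.34 and 8.21 in ProT, and 10.02 and 10.0 in DP. Both DP arrays lay above the other 4, and Icam2 was 3.34-fold higher in DP than in ProT (1.74 ± 0.11, adjusted p = 0.000179). It did not pass between ProT and HSC (-0.37 ± 0.11, adjusted p = 0.0893, but -0.45 and 0.0385 after median centring and -0.51 and 0.0294 without HSC replicate 2). Icam1, the main ligand of LFA-1, was called in no comparison, at 9.52 and 9.63 in HSC, 10.04 and 9.44 in ProT, and 9.26 and 9.23 in DP. Cd44 read 9.23 and 9.35 in HSC, 8.74 and 8.77 in ProT, and 7.47 and 7.33 in DP, stepping down without overlap. CD44 is a surface mark that thymocytes are known to lose as they leave their earliest stage. It was 1.44-fold lower in ProT than in HSC (-0.53 ± 0.09, adjusted p = 0.0114, or 0.0592 without ProT replicate 1) and 2.56-fold lower in DP than in ProT (-1.35 ± 0.09, adjusted p = 0.000169).

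Vcam1, the ligand of alpha4beta1 and a known product of stroma, endothelium and macrophages, was lowest in ProT. It read 7.47 and 8.63 in HSC, 5.76 and 5.73 in ProT, and 7.91 and 7.69 in DP, and the DP arrays fell between the HSC arrays. Vcam1 was at least 4.95-fold lower in ProT than in HSC (-2.31 ± 0.35, adjusted p = 0.00911) and at least 4.16-fold higher in DP than in ProT (2.06 ± 0.35, adjusted p = 0.00676, but 0.067 and 0.0543 without DP replicate 1 and 2). The change against HSC was -2.88 without HSC replicate 1 and -1.73 without HSC replicate 2. Between DP and HSC, Vcam1 did not pass at -0.25 ± 0.35, and the difference was 0.33 without HSC replicate 2 and -0.83, with a call (adjusted p = 0.00434), without HSC replicate 1. Markers of macrophages, epithelium, fibroblasts and endothelium were read beside its step to DP. Of 8 macrophage markers, C1qa, C1qb, C1qc and Mertk were higher and Adgre1 and Cd68 lower in DP than in ProT, with list means of 7.51 and 7.45 in DP and 7.33 and 7.09 in ProT. Of 8 thymic epithelial and fibroblast markers, 6 were higher and 0 lower in DP, with list means of 7.25 and 7.32 in DP and 6.63 and 6.54 in ProT. Of 6 endothelial markers 3 were higher and 0 lower, with means of 6.47 and 6.42 in DP and 6.33 and 6.16 in ProT. The HSC list means were 7.84 and 8.12 for macrophages, 6.66 and 6.58 for epithelium and fibroblasts, and 6.61 and 6.47 for endothelium. In ProT against HSC, Csf1r, Cd14 and the endothelial Eng were lower, Adgre1 was higher, and the other markers of these lists were not called. Foxn1, Krt5, Psmb11, Pdgfra, Adgre1, Mertk, Cd14, Cdh5, Kdr, Tek, Emcn and Flt1 had DP means under 7.17, and the part of such cells in the Vcam1 result was not tested.

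Over the whole path, 9 of the 33 rose and 7 fell in DP relative to HSC, against 16.0% and 18.8% of all genes (34.9% in either direction). Of these calls, 4 and 7 were at least 2-fold, against 5.12% and 8.66% of all genes. The higher genes were Itga3, Itga9, Itgae, Itgal, Itgax, Itgb2, Itgb4, Selplg and Icam2, led by Itgae and by Icam2 (1.37 ± 0.11, adjusted p = 0.000331). The call of Selplg (0.27 ± 0.08, adjusted p = 0.0368) was lost without any 1 array other than HSC replicate 1 (adjusted p up to 0.171), with the replicate block (0.0523) and with dim genes filtered out (0.0598). The lower ones were Itga1, Itga2b, Itga5, Itga6, Itgam, Itgb5 and Cd44, led by Itgam (-3.63 ± 0.14, adjusted p = 2.06e-05) and Itgb5 (-2.67 ± 0.08, adjusted p = 1.19e-05). Itgb3, Itgb7, Itgav and Itga2, which peaked in ProT, did not pass in this comparison. Without HSC replicate 1, however, Itgb3 (0.50, adjusted p = 0.00882) and Itgb7 (0.72, adjusted p = 0.00211) were called, and Itga2 was called without either ProT array or both (0.53, adjusted p = 0.0275).

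Genes around the integrins were followed as 5 further lists, whose called shares stand beside the 14.7% and 32.6% of all genes called in ProT against HSC and in DP against ProT. Of 16 genes of inside-out activation, 4 rose and 1 fell in ProT relative to HSC, and 9 were higher and 2 lower in DP than in ProT, with a median log2 change of 0.41 at that step, which makes 31.2% and 68.8% called. The 9 became 5 without either DP array. Fermt2, another kindlin gene, changed by 1.14 ± 0.13 in ProT against HSC (adjusted p = 0.00282). In DP against ProT it changed by -1.02 ± 0.13 (adjusted p = 0.00202), with means under 7.17 in each population. Tln2 and Fermt1, of the same families as Tln1 and Fermt3, were called at neither step. The related adaptors Skap1 and Skap2 went in opposite directions at both steps. Skap1, which links the T cell receptor to integrins, averaged 6.20 ± 0.10 in HSC, 9.78 ± 0.02 in ProT and 11.30 ± 0.01 in DP, at least 11.9-fold higher in ProT than in HSC (adjusted p = 8.44e-06) and 2.88-fold higher in DP than in ProT (adjusted p = 8.83e-05). Skap2, its relative in myeloid cells, averaged 10.33 ± 0.04 in HSC, 9.13 ± 0.05 in ProT and 8.04 ± 0.04 in DP, 2.29-fold and 2.13-fold lower at the same steps (adjusted p = 0.000286 and 0.000214). Cytip, which restrains LFA-1 through cytohesin-1, was higher by 1.15 ± 0.11 and then by 0.96 ± 0.11, and Fyb, the adaptor that binds SKAP proteins, by 1.19 ± 0.18 in DP against ProT. Rapgef1 at the first step (0.37 ± 0.13) and Sipa1 at the second (0.36 ± 0.12) did not pass. Rapgef1 was called without HSC replicate 1 (0.53, adjusted p = 0.0361), and Sipa1 was called under each of the 3 rescalings (adjusted p = 0.0258, 0.0353 and 0.0241) and without either HSC array (0.0163).

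Among 14 adhesion adaptors and kinases, 2 were higher and 1 lower in ProT than in HSC and 2 higher and 2 lower in DP than in ProT, which makes 21.4% and 28.6% called, near the shares of all genes. Vcl, which encodes vinculin, averaged 7.00 ± 0.01 in DP and 9.52 ± 0.06 in ProT, at least 5.75-fold lower in DP (adjusted p = 2.04e-05). Actn1, an actin crosslinker at adhesion sites, was higher by 1.07 ± 0.16 in ProT against HSC and by 1.31 ± 0.16 in DP against ProT, and the kinase gene Ptk2b was higher by 0.51 ± 0.08 at the first step. The smaller calls of Vcl in ProT against HSC (-0.41 ± 0.09) and of Pxn in DP against ProT (-0.35 ± 0.10) were lost without several single arrays, among them ProT replicate 1 and each DP array. Parvb at the first step (-0.48 ± 0.14) and Zyx at the second (-0.30 ± 0.12) did not pass, but Parvb was called after median centring (-0.56, adjusted p = 0.0471) and Zyx without ProT replicate 2 (-0.47, adjusted p = 0.0229).

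Selectins and the enzymes that build their sugar ligands had 4 of 12 members higher and 2 lower in ProT than in HSC, and 1 higher and 7 lower in DP than in ProT, where the median log2 change was -0.67. That makes 6 of 12 called at the first step and 66.7% at the second. Gcnt1, which makes the branched sugar that carries P-selectin ligands, averaged 6.10 ± 0.04 in DP and 9.67 ± 0.18 in ProT, at least 11.9-fold lower in DP (adjusted p = 1.39e-05). Fut4, a fucosyltransferase, was at least 3.88-fold lower in DP than in ProT. Podxl, a sialomucin of progenitors and vessels, was higher in ProT than in HSC by 2.72 ± 0.14 and lower in DP than in ProT by 2.42 ± 0.14 on the log2 scale. St3gal6, a sialyltransferase, was higher in ProT than in HSC by 2.77 ± 0.13. Tpst1, which sulfates PSGL-1, changed by -1.77 ± 0.14 at that step and by 1.01 ± 0.14 in DP against ProT. Tpst2, of the same list, was called the other way at both steps (1.02 ± 0.09 and -1.82 ± 0.09). St3gal4 did not pass at the first step (-0.39 ± 0.11), but was called with the replicate block (adjusted p = 0.0377), after median centring (0.034) and after cyclic loess (0.0469). St3gal6 did not pass at the second (-0.41 ± 0.13), but was called with dim genes filtered out (adjusted p = 0.0461) and without ProT replicate 1 (-0.59, 0.0118).

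Of 17 further adhesion ligands and matrix molecules, 4 were higher and 2 lower in ProT than in HSC, and 3 were higher and 3 lower in DP than in ProT. That makes 35.3% called at either step, which for DP against ProT is near the share of all genes. Cdh1 led both steps. Cd226, an adhesion receptor of T and NK cells that works with LFA-1, was higher in ProT by 2.38 ± 0.30, and Lama5, a laminin chain, was lower in DP than in ProT by 1.59 ± 0.18 on the log2 scale. Tnc, which encodes the alpha9 ligand tenascin-C, was higher in DP than in ProT by 1.93 ± 0.13. Fn1, which encodes fibronectin, was lower in ProT than in HSC by 2.20 ± 0.44 on the log2 scale, from -2.94 to -1.45 with an HSC array left out, and was not called without any 1 ProT or DP array. Its change of 1.41 ± 0.44 in DP against ProT did not pass (adjusted p = 0.0572). That change was called with the replicate block (adjusted p = 0.0455), after quantile normalization (0.0453) or median centring (0.0415), with dim genes filtered out (0.0289) and without either HSC array or both (0.000133). Pecam1 did not pass in ProT against HSC (0.49 ± 0.13), but was called without HSC replicate 1 (0.67, adjusted p = 0.00672). The 3 higher calls in DP against ProT became as few as 1 without ProT replicate 1 or a DP array.

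Of 8 tetraspanins that sit beside integrins in the membrane, 1 was higher and 2 lower in ProT than in HSC, and 2 were higher and 5 lower in DP than in ProT, which makes 37.5% and 87.5% called. Cd63, a marker of secretory granules, was at least 13.7-fold lower in DP than in ProT (-3.77 ± 0.47, adjusted p = 0.00199), and Cd9 and Cd151 were 6.69-fold and 1.80-fold lower. At the first step Cd82 was higher by 1.11 ± 0.12 and Cd81 lower by 1.01 ± 0.11 on the log2 scale, Tspan32 changed by -0.62 ± 0.11 and Cd63 did not pass (1.83 ± 0.47, adjusted p = 0.0542). Cd63 was called there with the replicate block (adjusted p = 0.0383), with dim genes filtered out (0.0267), with a trended prior (0.0499) and without HSC replicate 1 (2.52, 0.0044). Cd37 did not pass at the second (-0.07 ± 0.07). The 2 higher genes in DP were Cd81 (0.70 ± 0.11), whose call was lost without DP replicate 1, and Tspan32 (0.50 ± 0.11). Both calls of Tspan32 were lost without ProT replicate 2 or either DP array.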

How the data were processed

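Biotin-labelled RNA from 6 samples was hybridized to Affymetrix arrays, per the labels' protocols. The values were deposited as 1 table of log2 signals for 35556 probe sets and 6 arrays, made with RMA and Partek per the submitters' processing notes, with versions and settings not given in the sources used here. Values ran from 3.22 to 14.38. The array annotation linked 21789 probe sets to 1 gene each, covering 19938 genes, and the probe set with the highest mean stood for a gene with several. Probe sets with several genes (1621) or none listed (12146) were left out.

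All arrays entered 1 fit with a mean per population in limma 3.58.1 (R 4.3.3, lmFit and eBayes, 3 residual and 2.83 prior degrees of freedom), with Benjamini-Hochberg adjustment over all genes. The script was tested on simulated data. The members, lists and rules were chosen with earlier results of these data known, and the RBPJ motif and the further look at Itgad were added after the values were seen. Genes were described in full if called with a log2 change of at least 1 and a highest mean of at least 7.17, and of each other list up to 3 called genes and 1 that did not pass were named at each step. Further members are given for their pair or role, and their values had been seen. Same-numbered arrays showed no broad shared deviation over all genes (deviation correlations 0.058, -0.022 and -0.043). These values cannot show whether such samples were handled together. With 2 arrays a group, the number of arrays limits the precision. Some genes of the lists were not analysed here. Figures used Python 3.11.15 with matplotlib 3.10.9.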

Additional observations from a re-analysis of the deposited data

How the results depend on the processing

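The calls of the 33 genes numbered 16, 17 and 16 in ProT against HSC, DP against ProT and DP against HSC, and with the replicate number as a block they were 16, 16 and 15, with 8 genes highest in ProT in place of 9. That last count was 6 at an adjusted p below 0.01 and without either DP array, 7 under quantile normalization or cyclic loess and without either ProT array, and at most 10, with either other choice of probe set. The block ended the calls of Selplg in DP against ProT (adjusted p = 0.0521) and in DP against HSC (0.0523). Leaving out 1 array at a time moved the calls in DP against ProT between 11 and 20, the higher ones between 2 and 6, and the genes lowest in ProT between 0 and 2, and median centring gave 3 of the last. Over all genes the calls lay between 1792 and 3982 in ProT against HSC, between 3531 and 7408 in DP against ProT and between 4301 and 6934 in DP against HSC. With only the 2 populations compared there were 1792 calls in ProT against HSC, and at an adjusted p below 0.01 there were 1535, and 4041 in DP against ProT. Median centring split the calls of ProT against HSC into 1321 higher and 1821 lower, against 1565 and 1375 as deposited, and those of DP against ProT into 4522 and 2987, against 2899 and 3607. The cause of these shifts was not tested.

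Signs turned for small changes that had not been called as deposited, though Itgb3, Itgb7 and Vcam1 were called in DP against HSC with an HSC array left out. In DP against ProT, Itga6 became 0.04, 0.10 and 0.09 and Cd37 0.02, 0.05 and 0.05 under quantile normalization, median centring and cyclic loess, and Itga6 ran from -0.10 to 0.06 with 1 array left out. Tln1 became 0.02 and 0.01 and Fermt3 0.05 and 0.04 there under median centring and cyclic loess, and Fermt3 ran from -0.23 to 0.10. In ProT against HSC, Tln1 became -0.01 under median centring and Fermt3 0.03 under quantile normalization. The ranges with 1 array left out in that comparison were -0.06 to 0.20 for Tln1, -0.18 to 0.15 for Fermt3, -0.03 to 0.35 for Itgal, and -0.16 to 0.07 for Itgad. In DP against HSC they were -0.50 to 0.50 for Itgb3, with -0.0005 without DP replicate 2, -0.03 to 0.72 for Itgb7 and -0.83 to 0.33 for Vcam1. Averaging its probe sets or taking the more variable one turned Itgad in ProT against HSC to 0.78 and 1.61, and the more variable one to 0.18 in DP against HSC. No background signal is known, so folds of dim genes are bounds.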

Other observations

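Itgad had 2 probe sets linked to it alone, and they disagreed. The brighter one, used above, was called in no comparison, although its change of -0.27 in DP against ProT passed without either HSC array (adjusted p = 0.0418) and its change in DP against HSC without HSC replicate 1 (-0.44, adjusted p = 0.0184). The other read 6.83 and 6.79 in HSC, 8.38 and 8.46 in ProT, and 6.86 and 7.11 in DP, with both ProT arrays above the other 4. Its log2 change was 1.61 ± 0.10 in ProT against HSC (adjusted p = 0.000322) and -1.43 ± 0.10 in DP against ProT (adjusted p = 0.000266). Which of the probe sets measured Itgad was not tested. This probe set was looked at after its values were seen.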
